A study of Mus musculus with 4 samples.

Results

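The genes described here are those of the potassium channel family whose symbols begin with Kcn, taken by symbol from the deposited gene table without antisense and overlapping transcripts (symbols that end in os or contain ot1). The rule found 65 of the 14572 entries, and these cover 65 of the 94 protein-coding Kcn symbols of RefSeq. The table holds estimated read counts of 4 libraries from whole mouse retinas on a C57BL/6 background, 2 from wild-type mice (P1041 and P1033) and 2 from mice labelled PLSCR1 transgenic (TP-1036 and TP-1040). PLSCR1 is a phospholipid scramblase of the plasma membrane. All retinas had gone through an acute rise of eye pressure for 1 h (acute ocular hypertension) and were taken after 5 days, so each comparison is between genotypes after the same injury and uninjured retinas were not analysed here. The labels give the age as E14.5, which does not match an injury of the eye followed by 5 days. The sources used here do not give the promoter of the transgene or the number of animals per library. The columns TP-1036 and TP-1040 are marked case and were assigned to the transgenic group because the series has only 2 groups, so they are called transgenic-labelled.

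Library totals ran from 28866589 to 41215649 estimated reads. Plscr1 itself stood at 7.98 and 8.36 CPM (reads scaled to a common library size) in wild type against 9.80 and 8.06 in the transgenic-labelled group, a difference of 0.13 ± 0.17 on the log2 scale (SE; adjusted p = 0.742, edgeR quasi-likelihood test), and its sign turned without TP-1036. Whether transgene reads count toward this gene is not stated. Library TP-1036 stood apart from the others. Its lens crystallin markers (3 of 5 in the table) summed to 233 CPM, where wild type had 3.31 and 0.818 and TP-1040 had 5.71, with Crybb2 at 0 reads in P1033. Its longer transcripts also had lower values, as given below.

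Kcn genes encode the pore-forming and helper subunits of the channels that let potassium leave or enter cells along its gradient. Such currents set the resting potential, end action potentials and fix how often a neuron can fire. In the retina, photoreceptors shape their dark current with voltage-gated channels of the inner segment, ganglion cells and amacrine cells use fast and low-threshold channels to time their spikes, and Müller glia clear potassium through inward rectifiers. Most channels are built from 4 pore subunits, often of different genes, with auxiliary subunits that change their gating or carry them to the membrane.

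Levels between genes are compared as FPKM, reads scaled to the library total and to the length of the longest transcript. Of the 65 genes 4 had a mean FPKM above 50, 17 lay from 10 to 50, 32 from 1 to 10 and 12 below 1. Among the genes with the highest levels were Kcnj14, the inward rectifier Kir2.4, Kcnv2, the modifier subunit Kv8.2 of rods and cones, and Kcnab2, the Kv beta 2 auxiliary subunit. Kcnj14 stood at 184 and 156 FPKM in wild type against 201 and 179 in TP-1036 and TP-1040. For Kcnv2 the FPKM values were 133 and 141 against 115 and 154, and for Kcnab2 77.1 and 75.1 against 89.2 and 79.1. The libraries of Kcnj14 all lay above those of Kcnv2, and these above those of Kcnab2. Below them came Kcne2 (mean 28.3 FPKM), Kcnma1 (26.5), Kcna5 (24.7), Kcnj10 (22.6), Kcnj9 (19.9) and Kcnh2 (19.3). Over the whole family most neighbours in this order did not differ beyond their spread. In 60 of its 64 pairs of adjacent genes the values of the 4 libraries overlapped.

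**Figure D1:**
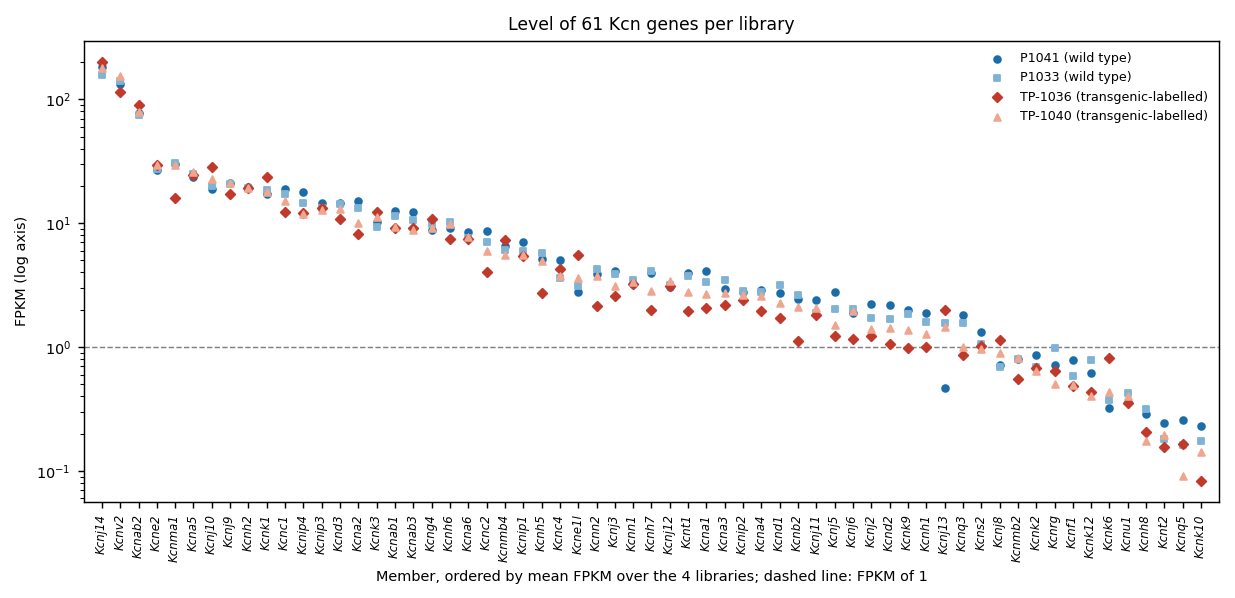
Level of 61 Kcn genes as FPKM on a log axis, with 1 point per library and genes ordered by their mean over the 4 libraries. Kcnj14, Kcnv2 and Kcnab2 stand above 75 FPKM in every library, and the dashed line marks the minimum mean FPKM of 1 for testing.

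Of the 65 genes 53 had a mean FPKM of at least 1 and entered the test over all 12687 such genes. In the comparison of the genotypes 39 of the 53 had a lower and 14 a higher value in the transgenic-labelled libraries. The share of lower values was 73.6%, against 49.6% over all tested genes. The median log2 difference was -0.23 against 0.0023 over all tested genes, and against the wild-type mean it came to -0.31 for TP-1036 and -0.12 for TP-1040. Between the wild-type libraries the median difference was -0.095 (P1033 over P1041). Both transgenic-labelled libraries lay below both wild-type libraries in 29 of the 53 genes (54.7%, against 24% of all tested genes) and above both in 7 (13.2%, against 23.8%).

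No single member passed the test. With edgeR's quasi-likelihood test 0 of the 53 reached a Benjamini-Hochberg adjusted p of 0.05, as did 0% of all tested genes. Unadjusted p-values under 0.05 came from this test for 18 lower members (34.0%, against 4.15% of all tested genes) and for 2 higher ones (3.77%, against 4.72%). DESeq2 called 2, both lower and Kcnq3 among them, where it called 0.11% of all tested genes lower and 0.434% higher. The counts depended on single libraries. Without TP-1040 edgeR called 23 lower and 5 higher (17.3% and 13.6% of all tested genes), without P1033 it called Kcnq3 and Kcnj5 lower (0.142% of all tested genes). It called 0 members without P1041 and 0 without TP-1036, where 0.0788% and 0.0473% of all tested genes were called lower. The median of the family was -0.19 when P1041 was left out, -0.28 for P1033, -0.12 for TP-1036 and -0.30 for TP-1040. Over all tested genes these medians were 0.0023, 0.0019, -0.00077 and 0.0078.

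Markers of ganglion cells and amacrine cells mostly had lower values. All 11 ganglion cell markers had lower values, with a median of -0.57 and a summed level of 886 and 602 CPM in wild type against 548 and 489. P1041 stood apart here, since the wild-type libraries differed on these markers by a median of -0.59 (P1033 over P1041), and 0 markers passed the adjusted test with edgeR while 7 had an unadjusted p under 0.05. Of 10 amacrine cell markers 9 were lower, 3 of them at an unadjusted p under 0.05 (edgeR), with a median of -0.26. Their sums were 1270 (P1041) and 1104 (P1033) against 1033.4 and 995 CPM. The wild-type libraries differed on these markers too, by a median of -0.25 (P1033 over P1041). All 8 rod markers were higher, with sums of 55941 to 62122 against 63857 to 69767 CPM, and bipolar markers were split, 4 higher and 4 lower. All 10 microglia markers were higher, with sums of 191 to 215 against 293 to 449 CPM. None of the markers of these lists was at 0 in any library. Whole retina was sequenced, so fewer cells of a type and less RNA per cell cannot be told apart, and the part of these markers in the channel differences was not tested.

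**Figure D2:**
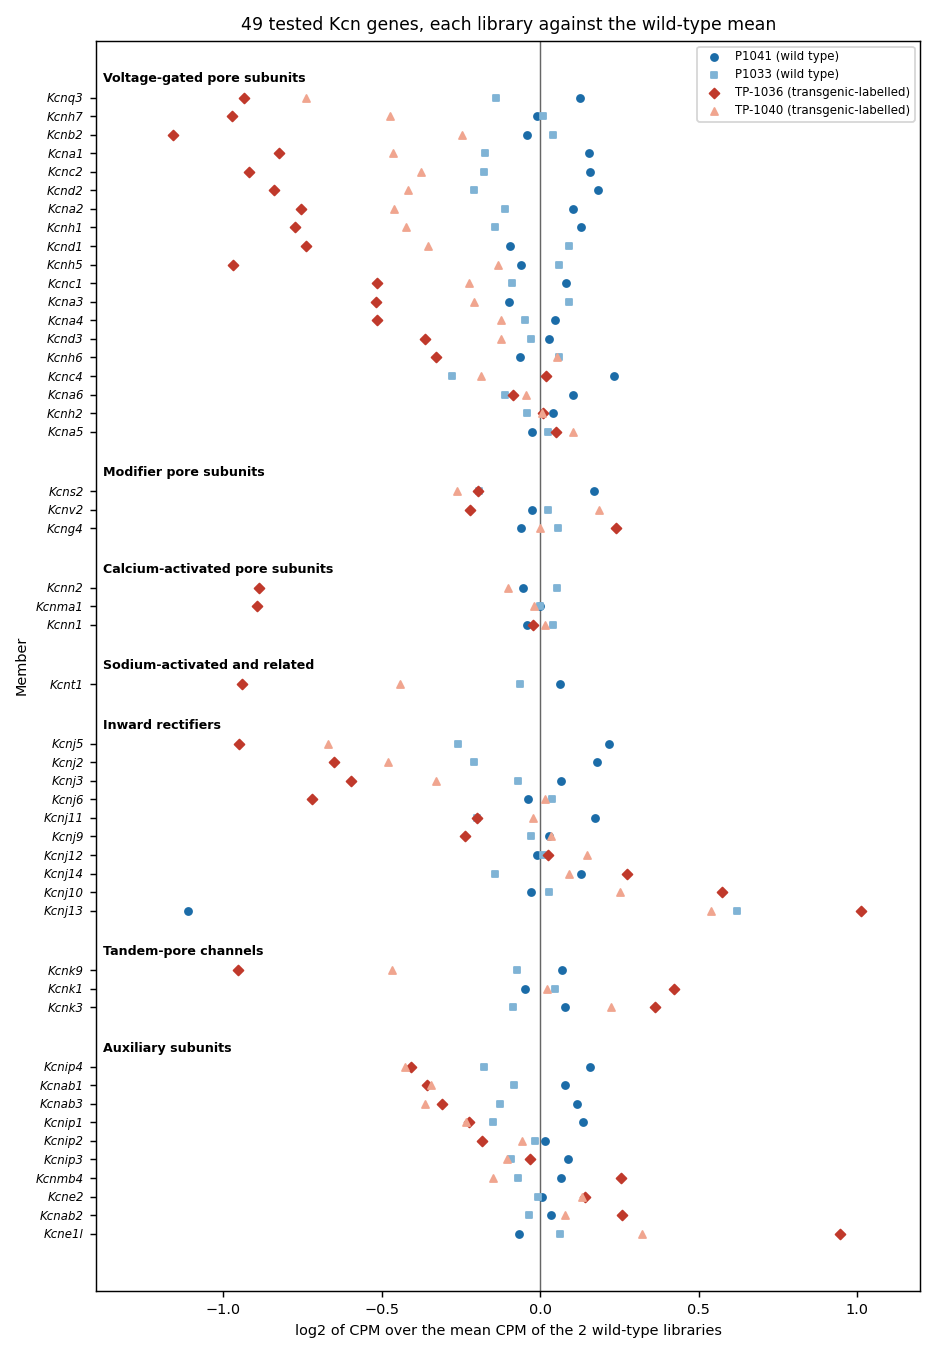
Tested members (49 shown) by channel class, with 1 point per library showing the log2 of its CPM over the mean of the 2 wild-type libraries. Most voltage-gated pore subunits have TP-1036 and TP-1040 to the left of both wild-type libraries, with TP-1036 farther out, while Kcnj10, Kcnk3 and Kcne1l lie to the right.

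The photoreceptor gene Kcnv2 had 685 and 710 CPM in wild type against 599 and 793 in the transgenic-labelled group, so TP-1036 was the lowest and TP-1040 the highest library. Its log2 difference was -0.0028 ± 0.16 (SE, adjusted p = 0.993, edgeR), and the sign turned with upper-quartile scaling, with no filter, with a length trend, without P1033 and without TP-1036. Kcnj14 stood at 496 and 411 against 549 and 484 CPM, a difference of 0.19 ± 0.14 that came to 0.056 without P1033. By contrast Kcnb2, the voltage-gated pore subunit Kv2.2, had 36.6 and 38.8 CPM against 16.9 in TP-1036 and 31.8 in TP-1040. Its difference of -0.63 ± 0.28 was mostly that of TP-1036 and came to -0.24 without that library.

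The voltage-gated pore subunits held most of the lower values. Of 23 tested genes 20 had lower and 3 higher values, with a median of -0.36 (TP-1036 -0.52, TP-1040 -0.21). In 16 of them (69.6%, against 24% of all tested genes) both transgenic-labelled libraries lay below both wild-type ones. At an unadjusted p under 0.05 10 had lower values (43.5%, against 4.15%) and 0 higher ones (against 4.72%).

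Kcnq3, a gene of the M-current, a slow low-threshold current that damps repeated firing, was at the lower end. It had 21.8 and 18.1 CPM in wild type against 10.46 and 11.96 in the transgenic-labelled group. Its difference of -0.83 ± 0.16 was the most negative of the family (adjusted p = 0.529 in edgeR, adjusted p = 0.0198 in DESeq2). The groups did not overlap, and without TP-1036 the difference was -0.73. Kcnq5 was below the minimum level, with 26 to 52 reads per library.

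Genes of the Kv1 channels, which sit along axons and at their initial segments, were lower in part. Kcna2 (Kv1.2) had 175 and 151 CPM against 96.4 and 118, a difference of -0.60 ± 0.15, and Kcna1 (Kv1.1) had 16.7 and 13.3 against 8.50 and 10.9 CPM, a difference of -0.63 ± 0.19. The groups of both were apart, with TP-1036 the lowest library. Kcna3, at 5.68 and 6.48 against 4.25 and 5.27 CPM, and Kcna4, at 14.02 and 13.1 against 9.51 and 12.5, were apart by smaller amounts (-0.35 ± 0.21 and -0.30 ± 0.17), which came to -0.20 and -0.12 without TP-1036. Kcna6 stood at 50.2 and 43.3 against 44.1 and 45.3 CPM with overlapping groups. Kcna5, the Kv1 gene with the highest level per length, went the other way by 0.078 ± 0.11, with 67.8 and 70.2 against 71.5 and 74.2 CPM. Kcna5, Kcna1 and Kcna6 are adjacent in the RefSeq gene order, as are Kcna3 and Kcna2, so neighbours differed in size or direction.

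The Kv beta subunits bind Kv1 channels inside the cell. Kcnab1 had 55.4 and 49.7 CPM against 41.01 and 41.4, a difference of -0.35 ± 0.12, and Kcnab3 had 31.5 and 26.5 against 23.4 and 22.5, a difference of -0.34 ± 0.13. In these genes the transgenic-labelled libraries were close to each other and below both wild-type libraries. The abundant Kcnab2 lay at 304 and 290 against 356 and 313 CPM, higher by 0.17 ± 0.12, which came to 0.081 without TP-1036. Kcnab3 came to -0.21 without P1041.

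Kv3 channels let neurons fire fast. Kcnc2 (Kv3.2) had 43.9 and 34.8 CPM against 20.8 and 30.3, a difference of -0.62 ± 0.21. Kcnc1 (Kv3.1) had 147 and 130 CPM against 96.9 and 119, a difference of -0.36 ± 0.14. Kcnc4 differed by -0.078 ± 0.20 with overlapping groups. Kcnc2 and Kcnc1 thus had the lower values at an unadjusted p under 0.05, and in each TP-1036 was the lowest library. Without it the differences came to -0.37 and -0.22.

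Kv4 pore subunits carry the fast inactivating A-type current, together with the calcium-binding Kcnip proteins. Kcnd2 had 11.3 and 8.57 CPM against 5.54 and 7.43, a difference of -0.61 ± 0.22, and Kcnd1 had 14.4 and 16.4 against 9.24 and 12.1, a difference of -0.53 ± 0.18. Kcnd3, the Kv4 gene with the highest level, had 104 and 100.2 CPM against 79.3 and 93.7, a difference of -0.24 ± 0.13 that came to -0.12 without TP-1036 and to -0.10 with a length trend. All 3 had lower values with groups apart, as did 24% of all tested genes. Kcnd2 came to -0.40 without P1041 and Kcnd1 to -0.35 without TP-1036. The 4 Kcnip genes also had lower values, as did 49.6% of all tested genes. Groups were apart in 3 of them, and 1, Kcnip4, had an unadjusted p under 0.05 (edgeR). Kcnip4 had 43.1 and 34.2 CPM against 29.2 and 28.8, a difference of -0.41 ± 0.14, and Kcnip1 had 29.3 and 24.1 against 22.8 and 22.7, a difference of -0.23 ± 0.14. Without P1041 these came to -0.24 and -0.080. Kcnip2 (-0.12 ± 0.15) was apart by little, at 8.79 and 8.60 against 7.66 and 8.36 CPM. Kcnip3, which is also a transcriptional repressor, differed by -0.068 ± 0.12 with overlapping groups.

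Among the Kcnh genes of the ether-a-go-go family the values split. Kcnh7 (Erg3) had 52.97 and 53.6 CPM in wild type, which were close to each other, and 27.2 and 38.4 in the transgenic-labelled libraries, a difference of -0.70 ± 0.18. Kcnh1 (Eag1) had 13.7 and 11.4 against 7.34 and 9.36 CPM, a difference of -0.59 ± 0.19. Kcnh5 had 21.2 and 23.0 CPM against 11.3 (TP-1036) and 20.1 (TP-1040), and its difference of -0.49 ± 0.26 came to -0.13 without TP-1036. Kcnh2 (Erg1), the Kcnh gene with the highest level, stood at 83.9 and 79.2 against 82.1 and 81.8 CPM, a difference of 0.0076 ± 0.11 whose sign turned without P1033, with total-count scaling, in limma on log2(FPKM + 1) and at a mean FPKM of at least 5. Kcnh6 stood at 30.8 and 33.6 against 25.7 and 33.4 CPM with overlapping groups. Kcnh8 had 31 to 44 reads per library and was not tested.

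Modifier subunits form no channel alone and alter the channels they join. Besides Kcnv2, Kcng4, known as a marker of type 5 bipolar cells, stood at 34.0 and 36.8 against 41.8 and 35.4 CPM (0.12 ± 0.13), with overlapping groups. Kcns2 had 7.25 and 5.64 against 5.62 and 5.37 CPM (-0.23 ± 0.20), with groups just apart and a value of -0.036 without P1041. Kcnf1 had 90 to 109 reads per library and was not tested.

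Among the channels opened by calcium or sodium, 2 of the calcium-activated genes had low values mainly in TP-1036. Kcnma1, the pore of the large-conductance BK channel, had 364 and 365 CPM in wild type, 196 in TP-1036 and 360 in TP-1040. Its difference of -0.39 ± 0.27 came to -0.014 without TP-1036. Kcnn2, an SK channel, had 14.3 and 15.4 CPM against 8.03 and 13.8, a difference of -0.44 ± 0.26 that came to -0.097 without TP-1036. Kcnn1 stood at 13.1 and 13.9 against 13.3 and 13.7 CPM. Kcnt1, the sodium-activated Slack channel, was low in both libraries, with 26.6 and 24.4 against 13.3 and 18.8 CPM and a difference of -0.67 ± 0.19, or -0.44 without TP-1036. Kcnt2 and the sperm channel gene Kcnu1 had 34 to 59 reads per library. The BK auxiliary gene Kcnmb4 stood at 10.6 and 9.70 against 12.1 and 9.17 CPM, and Kcnmb2 had 62 to 98 reads per library.

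Inward rectifiers pass potassium more easily into the cell and hold the resting potential. The G-protein-gated members were lower in part. Kcnj5 (GIRK4) had 13.1 and 9.42 CPM against 5.84 and 7.08, a difference of -0.80 ± 0.21, and Kcnj3 (GIRK1) had 21.8 and 19.8 against 13.7 and 16.5, a difference of -0.46 ± 0.15. The groups of both were apart. Kcnj6 (GIRK2) had 6.90 and 7.27 CPM against 4.30 (TP-1036) and 7.16 (TP-1040), and Kcnj9 (GIRK3), the member of this kind with the highest level, had 81.3 and 78.1 against 67.6 and 81.6. In Kcnj6 and Kcnj9 the groups overlapped and only TP-1036 was low. Kcnj2 (Kir2.1) had 12.1 and 9.27 CPM against 6.81 and 7.67, a difference of -0.56 ± 0.19 that came to -0.36 without P1041. Kcnj11, the pore of ATP-sensitive channels, and Kcnj12 stood at 7.53 and 5.82 against 5.81 and 6.57 CPM and at 7.64 and 7.73 against 7.82 and 8.51 CPM.

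Kcnj10, the Kir4.1 channel through which Müller glia buffer potassium, was higher. It had 103 and 107 CPM in wild type against 156 (TP-1036) and 125 (TP-1040), so that both lay above both wild-type libraries. The difference was 0.42 ± 0.14 (SE; adjusted p = 0.538 in edgeR, unadjusted p = 0.0215), with 0.26 once TP-1036 was left out and 0.58 once TP-1040 was. All 8 Müller glia markers were higher as well, with none at 0 in any library, and their summed level was 5382 and 5631 CPM against 8052 and 6061. Their part in the Kcnj10 difference was not tested. Kcnj9 is the gene next to Kcnj10 in the RefSeq order, and the ratio of Kcnj10 to Kcnj9 per length was 0.903 and 0.976 in wild type against 1.64 and 1.09.

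A few rectifiers of support tissues had low counts. Kcnj13, the Kir7.1 channel of the retinal pigment epithelium, had 17 and 65 reads in wild type against 97.9 and 76 in the transgenic-labelled group. In CPM these were 0.593 and 1.97 against 2.58 and 1.86, so the groups overlapped. Its difference of 0.77 ± 0.53 ran from 0.17 without P1041 to 1.90 without P1033. Of 6 pigment epithelium markers 5 were in the table and none of these was at 0, and their sum was 31.1 and 45.8 CPM against 92.8 and 65.1. Of these 4 had higher values, with overlapping groups in Rdh5. Tyrp1 had a lower one, at 3.91 and 7.18 against 6.13 and 3.04 CPM. Ttr, at 11.2 and 14.9 against 41.6 and 28.4 CPM, held a large part of the sum. The part of these markers in the Kcnj13 values was not tested. Exons of Kcnj13 overlap those of Gigyf2 on the opposite strand in GENCODE, so its reads are uncertain. Kcnj8, which pericytes express with Abcc9, had 53 and 57 reads against 111 and 94, or 1.85 and 1.73 against 2.93 and 2.30 CPM, and was below the minimum level. All 5 pericyte markers, Kcnj8 among them, had higher values with a median of 0.29, where Kcnj8 and Cspg4 were taken from the fit with no filter. Cspg4 stood at 1.88 and 2.15 against 2.61 and 3.46 CPM, Pdgfrb at 17.9 and 21.1 against 22.8 and 25.0 and Abcc9 at 8.86 and 9.23 against 9.43 and 9.71. The abundant Rgs5, at 82.1 and 68.1 against 74.2 and 79.1 CPM, made up most of the list's sum of 113 and 102 against 112 and 120 CPM. Their part in the Kcnj8 values was not tested.

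Tandem-pore channels carry the background leak of potassium. Kcnk9 (TASK-3) had 24.9 and 22.5 CPM against 12.3 and 17.2, a difference of -0.69 ± 0.19. Its relative Kcnk3 (TASK-1) went the other way, with 39.1 and 34.8 against 47.5 and 43.1 CPM and a difference of 0.29 ± 0.12. Both had groups that did not overlap, and the ratio of Kcnk9 to Kcnk3 per length was 0.197 and 0.200 in wild type against 0.0799 and 0.123. Kcnk1 (TWIK-1), the tandem-pore gene with the highest level, stood at 38.5 and 41.1 against 53.4 and 40.3 CPM, with only TP-1036 high and a difference of 0.24 ± 0.16 that came to 0.024 without it. Kcnk2, Kcnk6, Kcnk10 and Kcnk12 were below the minimum level. Among these Kcnk6 (TWIK-2) had 38 and 50 reads in wild type against 128 (TP-1036) and 73 (TP-1040), while Kcnk12 had 35 and 50 against 33 and 33.

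Of the Kcne helper subunits, Kcne2 stood at 46.0 and 45.6 against 50.5 and 50.2 CPM, a small difference of 0.14 ± 0.11 with groups apart, which came to 0.026 with a length trend. Kcne1l, now called Kcne5, had 123 and 155 reads in wild type against 328 and 229, or 4.29 and 4.70 against 8.66 and 5.61 CPM. Its difference of 0.67 ± 0.25 (unadjusted p = 0.0375, adjusted p = 0.538, edgeR) was 0.32 once TP-1036 was left out and 0.95 once TP-1040 was. Kcne1l and Kcnj10 were the 2 higher members at an unadjusted p under 0.05. Kcnrg, a regulator of channel assembly, had 38 to 58 reads per library.

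Transcript length moved with these differences. Across the 53 tested members the Spearman correlation of the length of the longest transcript with the log2 difference from wild type was -0.63 for TP-1036 and -0.50 for TP-1040, as a description over genes that share the same libraries. Over 12554 tested genes with a known length and reads in all libraries the values were -0.46 and -0.055. Between the wild-type libraries (P1033 over P1041) the correlation was -0.22 over the members and 0.16 over the 12554 genes. All 11 members of at least 7000 bases had lower values, as did 80.3% of all tested genes of that length, with medians of -0.60 and -0.19. The 19 members from 4000 to 7000 bases had a median of -0.35, against -0.059, and the 23 shorter ones 0.066, against 0.066. In TP-1036 alone the longest members had a median of -0.89, against -0.38 over all genes of that length, and in TP-1040 -0.42, against -0.028. Library preparation and RNA quality were not tested as a source of this pattern.

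**Figure D3:**
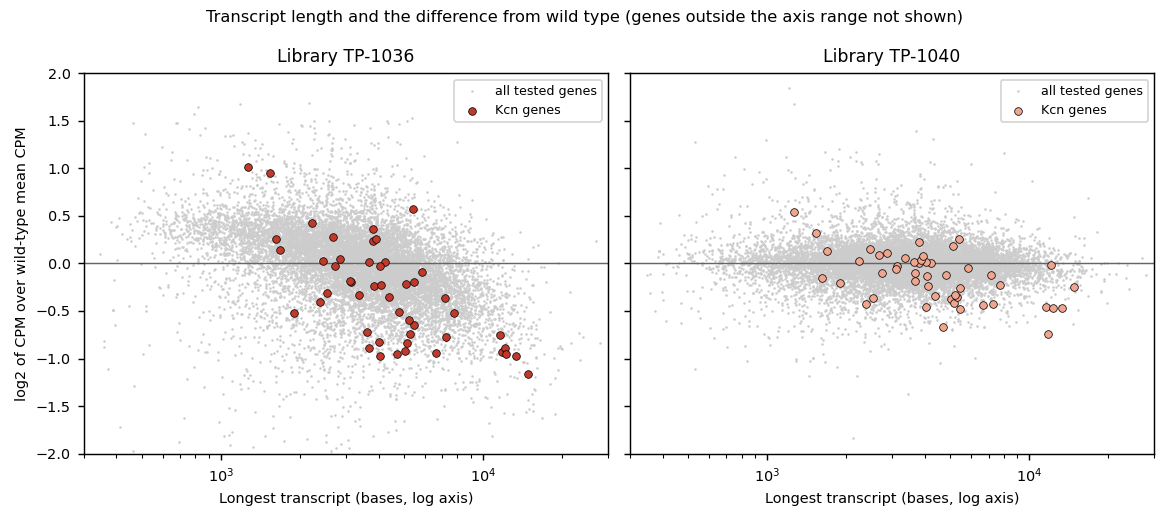
Length of the longest transcript on a log axis against the log2 of CPM over the wild-type mean, for TP-1036 and TP-1040, with the Kcn genes over all tested genes in grey. In TP-1036 the whole cloud slopes downward with length, while in TP-1040 it is nearly flat and most long Kcn genes lie below 0.

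A fit that takes a smooth length trend out of each library, added after the data had been seen, made the family's median -0.14, against 0.0032 over all tested genes. Lower values at an unadjusted p under 0.05 were again found for 18 members, against 5.12% of all tested genes, and higher values for 3, against 6.28%. Among the 18 lower members 17 were also lower at that threshold in the fit without the trend. Kcnc1 left and Kcnb2 entered. The differences of the long genes became smaller, to -0.56 for Kcnq3, -0.41 for Kcnh7, -0.34 for Kcna2 and -0.42 for Kcnk9, while Kcnj5 at -0.75, Kcna1 at -0.61 and Kcnj10 at 0.51 moved less. The fit called 0 members at an adjusted p of 0.05.

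**Figure D4:**
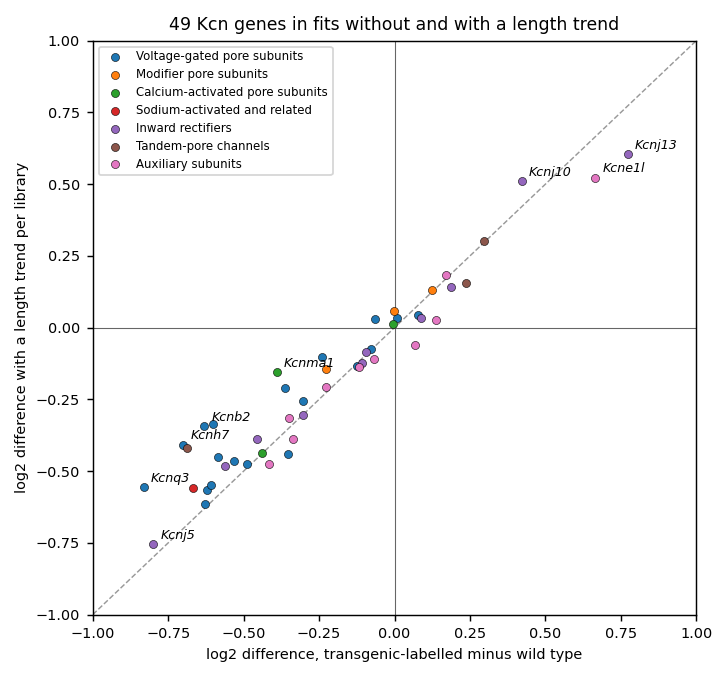
Log2 difference of 49 tested members without (horizontal axis) and with (vertical axis) a length trend per library, coloured by channel class, with the dashed line marking equal values. Long genes such as Kcnq3, Kcnh7 and Kcnb2 lie above the line, and most genes that were lower stay below 0.

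Genes outside the Kcn symbols that carry, anchor or balance potassium currents were split. Of the 36 listed 35 were in the table and 33 were tested, 19 with lower and 14 with higher values and a median of -0.082. With edgeR 0 passed the adjusted threshold, 4 were lower (12.1%, against 4.15% of all tested genes) and 1 higher (3.03%, against 4.72%) at an unadjusted p under 0.05, and DESeq2 called 0. Cacna1e, a calcium channel gene, had the most negative difference of the list (-0.69 ± 0.37) but an unadjusted p of 0.107 (edgeR). The 4 lower genes under 0.05 were Dpp10 (-0.57 ± 0.14), Cntn2 (-0.45 ± 0.15), Dlg2 (-0.40 ± 0.13) and Atp1b1 (-0.32 ± 0.13). Dpp10 is an auxiliary subunit of Kv4 channels and Cntn2 an axonal adhesion gene. Cacna1e came to -0.19 without TP-1036 and to -1.43 without TP-1040, and Dpp10 came to -0.21 with a length trend. Dpp10 had 23.7 and 20.6 CPM against 14.1 and 15.8, with groups apart. Dpp6 of the same list, at a higher level, had 123.5 and 106 against 111 and 102 CPM. Its groups overlapped, with a difference of -0.11 ± 0.13. At the higher end stood dystroglycan Dag1 (0.35 ± 0.11), which had 79.1 and 83.3 CPM against 99.1 and 108. Atp1b2 and Slc12a5 had high levels within the list. The pump subunit Atp1b2 stood at 1533 and 1542 against 1751 and 1841 CPM, and the potassium chloride cotransporter Slc12a5 at 915 and 913 against 785 and 942 CPM. Without P1033 edgeR called 1 higher (3.03%, against 0.575% of all tested genes). Without TP-1040 it called 4 higher (12.1%, against 13.6%) and 10 lower (30.3%, against 17.3%). The median of the list was 0.048 without TP-1036 and 0.036 with a length trend, so its sign rested on that library and on the length term.

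Reads of some members may be shared with other genes. In GENCODE exons of 22 of the 65 genes overlap exons of another gene, and in 3 of them, Kcnh7, Kcnip4 and Kcnj13, the other gene (Gca, 5730480H06Rik and Gigyf2) is also in the table. In the other overlaps the second gene has no entry in the table, and that of Kcnab2 with Gm16334 lies on the same strand. Strand use in the counting is not stated, so values of the 22 genes are less certain.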

How the data were processed

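Retinal RNA was made into 4 libraries with a TruSeq RNA kit of Illumina (per the labels' protocols). The authors deposited 1 table with estimated counts per gene. Bowtie 0.12.2 and the builds mm8 and mm9 appear without a role in the submitters' processing notes. The sources used here do not give the counter, the annotation or the filters. The 4 other value columns of the table were not used, and no entry had fewer than 76.9 reads in all. Levels as FPKM were computed here by dividing each count by its column total and by the longest GENCODE M21 transcript of that name, with the median of 3472 bases for 167 unmatched entries. All 65 members matched.

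Estimated counts were rounded and tested with edgeR 4.0.16 (limma 3.58.1, R 4.3.3) over the 12687 genes whose mean FPKM reached 1. TMM scaling, quasi-likelihood fits, two-sided tests and Benjamini-Hochberg adjustment at 0.05 were used. CPM values use the scaled library sizes, standard errors are the log2 difference over the root of F, and log2 differences are transgenic-labelled minus wild type. The common biological coefficient of variation was 13.4%. Samples are 2 libraries per group that nothing ties to separate animals, so p-values measure the spread between libraries. Columns could not be matched to single samples. On data simulated from these libraries edgeR called 91 of 100 genes changed 2-fold and 6 of 12487 unchanged genes. In that simulation each gene's spread was set by its level alone and no length trend was put in. These shares thus need not hold for the real libraries. Alternatives were other scalings, DESeq2 1.42.0, limma, other filters, each library left out and a length trend (lowess, span 0.3; added after the data had been seen). A planned description of signature letters in the proteins was not run. Members and lists were chosen with earlier results of these data known. Named genes were, by class, the highest level and largest differences, members apart at an unadjusted p under 0.05, the 10 highest and 5 lowest levels, genes with a known retinal role and those with the widest spread within a group, and the remaining members were added so that each is accounted for. Values of 4 members and of some other genes are not reported singly here, though they count in the totals.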

Additional observations from a re-analysis of the deposited data

How the results depend on the processing

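The labels number the samples 1 and 2 in each group, but the columns of the table carry other numbers. No paired analysis was possible because the columns carry no replicate number of the labels. Over 13 alternatives 41 of the 53 tested members kept their sign, and of the 28 members with a difference of at least 0.3 (log2) 1, Kcnj6, changed sign. The number of genes called was 0 in the fit as reported, 1 with upper-quartile scaling, 69 in DESeq2, 2 in limma on log2(FPKM + 1), 1 with no filter and 27 to 3923 with a library left out. Called members numbered 2 in DESeq2 (Kcnq3 at -0.83 among them) and 0 to 28 with a library left out, and called genes of the other potassium list 0 to 14. Members lower at an unadjusted p under 0.05 were 7, members with a lower value 18 and the median -0.082 at a mean FPKM of at least 5, where only 27 members were tested. With a library left out these were 8 to 28, 34 to 38 and -0.30 to -0.12. Signs turned with a length trend for Kcna6 (0.031), Kcnmb4 (-0.061), Kcnn1 (0.014), Kcnv2 (0.057) and Slc12a5 (0.016). Kcnn1 was 0.014 and Kcnv2 0.013 with upper-quartile scaling, and 0.0067 and 0.0071 with no filter. Kcnh2 was -0.020 with total-count scaling, -0.018 in limma and -0.0066 at a mean FPKM of at least 5. With a library left out, values ran from -0.17 to 0.045 for Kcna6, -0.31 to 0.20 for Kcnc4, -0.033 to 0.049 for Kcnh2, -0.32 to 0.056 for Kcnh6, -0.15 to 0.024 for Kcnip3, -0.28 to 0.090 for Kcnj11, -0.71 to 0.018 for Kcnj6, -0.23 to 0.037 for Kcnj9, -0.14 to 0.26 for Kcnmb4, -0.045 to 0.039 for Kcnn1, -0.21 to 0.19 for Kcnv2, -0.016 to 0.27 for Plscr1 and -0.21 to 0.048 for Slc12a5. Of 42 tested members with a difference of at least 0.1 (log2), the value moved by over 1.5 times in 24 without TP-1036, 15 without TP-1040, 11 without P1041, 7 without P1033 and 11 with a length trend. The cause of these changes was not tested. A group with 1 library left was assumed to vary like the other group. The 12 members under the minimum level had 24 to 128 reads per library, where counting error is wide.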
